A study of Mus musculus with 13 samples.

Results

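The 10 genes described here are Ucp1, Cidea, Dio2, Kcnk3, Cpt1b, Fabp3, Ppargc1a, Elovl3, Adrb3 and Prdm16, a set of genes that brown adipocytes use to make heat or by which they are recognized. They were chosen by name, and all 10 were found among the 36109 genes to which the deposited transcripts were assigned. RNA-sequencing had been performed on 13 libraries. Of these, 3 were from aortic endothelial cells (ECs) of Hmox2+/+ mice (EC WT), 3 from ECs of Hmox2-/- mice (EC KO), 4 from whole hearts of Hmox2+/+ mice (heart WT) and 3 from whole hearts of Hmox2-/- mice (heart KO). Hmox2 encodes heme oxygenase 2, an enzyme that degrades heme, and the study used mice without it as a model of sleep apnea. Hmox2-/- mice carried the deletion on both alleles, the Hmox2+/+ mice were their wild-type littermates, and all groups were labelled Room Air. The study describes the sequenced mice as young. Their strain and sex, and whether each library came from a separate mouse, are not given in the sources used here, so p-values measure only the spread between these libraries. EC RNA was collected by flushing the lumen of the dissected aorta slowly with TRI Reagent through a blunt needle after rinsing with saline, with no sorting of cells, whereas hearts were pulverized whole.

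Brown adipocytes burn fatty acids in mitochondria and release the energy as heat. The sympathetic transmitter norepinephrine acts on beta-adrenergic receptors, cyclic AMP rises, stored lipid is broken down, and uncoupling protein 1 in the inner mitochondrial membrane lets protons return without making ATP. In mice the fat that surrounds the thoracic aorta resembles brown fat, while a whole heart, which also burns mainly fatty acids, shares some of the same oxidation genes without the uncoupling protein.

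Levels are given as TPM, a transcript abundance scaled to the same total in each library, which corrects for transcript length and so allows levels of different genes to be compared. Genotypes were compared on counts normalized within a tissue. A gene is called when its Benjamini-Hochberg adjusted p from the edgeR quasi-likelihood test over all genes was at most 0.05 and its level changed at least 2-fold, that is, by at least 1 on the log2 scale.

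EC libraries held 26067147 to 31138642 estimated counts and heart libraries 7268626 to 31619776, with heart WT 1 as the shallowest. Hmox2 itself fell by 2.34 on the log2 scale in ECs and by 2.30 in hearts (edgeR adjusted p = 0.000131 and 1.58e-07), and in TPM it was at 51.3 to 61.6 in EC WT, 19.0 to 32.05 in EC KO, 25.9 to 34.4 in heart WT and 15.9 to 18.5 in heart KO. The genotypes did not overlap, but signal remained in the KO libraries, and the TPM differ less than the counts do. The labelled cell type of the EC libraries was checked against marker lists. Endothelial markers summed to 924 to 1787 TPM in EC WT and 1915 to 2126 in EC KO, against 167 to 303 in hearts, so endothelial RNA was present. The 14 adipocyte markers, led by Cfd, Car3, Thrsp and Adipoq, summed to 9184 to 14026 TPM in EC WT and 7503 to 10249 in EC KO, several times the endothelial sum in every EC library, against 43.3 to 73.6 in hearts. Smooth muscle markers reached 1975 to 3149 TPM in EC WT, and 2249, 600 and 649 in EC KO 1, 2 and 3. Cardiomyocyte markers summed to 115 to 690 TPM in EC WT and 5.72 to 9.45 in EC KO, and skeletal muscle and mesothelial markers were also higher in EC WT, with sums of 22.1 to 94.2 and 10.5 to 73.9 TPM against 3.28 to 6.63 and 4.92 to 6.19. Fibroblast and macrophage marker sums were higher in every EC KO library than in every EC WT library, and nerve and glia markers stayed at 2.68 to 5.42 TPM. The Y-linked gene Ddx3y was at 0.883 and 0.390 TPM in EC KO 2 and EC KO 3 and at 14.6 to 22.5 TPM in the other 4 EC libraries. The part of these differences in the results below was not tested beyond the values given beside them. In bulk libraries fewer cells of a type and less RNA per cell cannot be told apart.

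**Figure D1:**
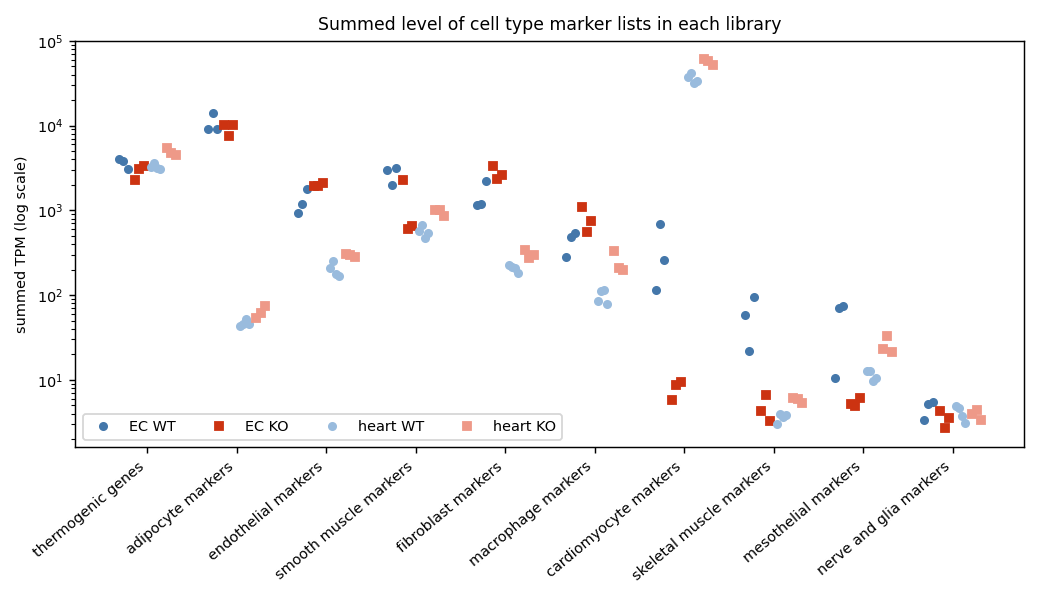
Summed TPM (log axis) of the 10 thermogenic genes and of 9 cell type marker lists in each of the 13 libraries, with circles for Hmox2+/+ and squares for Hmox2-/- libraries, dark for ECs and pale for hearts. Adipocyte markers sat between 7503 and 14026 TPM in the 6 EC libraries and at or below 73.6 TPM in the 7 hearts.

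The aortic libraries of both genotypes held RNA of all 10 thermogenic genes. Together these summed to 4066, 3819 and 3097 TPM in EC WT 1, 2 and 3, and to 2249, 3046 and 3341 TPM in EC KO 1, 2 and 3. Within the set, Ucp1 and Cidea were the highest, Fabp3 and Cpt1b followed, Adrb3, Kcnk3 and Dio2 came next, and Elovl3, Ppargc1a and Prdm16 were lowest. In hearts the order was different: Fabp3, Cpt1b and Kcnk3 led, and Ucp1, Elovl3, Adrb3 and Dio2 were at or near 0.

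Ucp1, the uncoupling protein that defines the brown adipocyte, was at 1478, 1369 and 1106 TPM in EC WT 1, 2 and 3 and at 1022, 1725 and 1909 TPM in EC KO 1, 2 and 3. EC KO 2 and EC KO 3 were the highest of the 6 libraries and EC KO 1 the lowest, so the genotypes overlapped. By TPM Ucp1 ranked 46th, 74th and 86th of all genes in EC WT 1, 2 and 3 and 77th, 29th and 30th in EC KO 1, 2 and 3. Mitochondrially encoded transcripts took 48.5, 35.5 and 38.7% of TPM in EC WT 1, 2 and 3 and 41.6, 51.5 and 48.7% in EC KO 1, 2 and 3. A higher share lowers the TPM of nuclear genes, and the EC levels and ranks given here were not corrected for it. Its TPM was 1.05 to 4.06 times that of Pecam1, a defining gene of endothelium, in the 6 EC libraries. In hearts it was all but missing, with 5 counts in the 4 heart WT libraries together, out of 98610751, and 0 counts in each heart KO library. Taking the floor of a heart KO library as 3 counts, the mean EC KO level was at least 22313-fold higher than that of heart KO, a bound that covers counting error only. Between genotypes the EC difference was 0.24 on the log2 scale (SE 0.34, edgeR adjusted p = 0.645). Without EC KO 2 and EC KO 3, the libraries low in Ddx3y, EC KO 1 alone was below EC WT (log2 difference -0.47). That is a value of 1 library against 3, in which the spread comes from EC WT alone, and it is given here and below without a test.

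Promoter sequences were found in the RefSeq table (build GRCm38.p6) for 5 of the 10 genes, namely Ucp1, Dio2, Ppargc1a, Fabp3 and Prdm16. The 250 bases before the start site are shown for Ucp1 (chr8:83290098-83290347, plus strand), Dio2 (chr12:90739039-90739288, minus strand) and Ppargc1a (chr5:51567726-51567975, minus strand), because these 3 genes, chosen after their values were seen, were each lowest in EC KO 1 and highest in EC KO 3 among the EC KO libraries, and because cyclic AMP is the signal that reaches them in brown fat. Capitals mark the motifs found by searching both strands for TGACG (the cyclic AMP response half-site, written CGTCA on the other strand), AGGTCA (a nuclear receptor half-site), TATAAA (the TATA box) and TCAAGGTCA (the oestrogen-related receptor element, which contains AGGTCA).
Ucp1: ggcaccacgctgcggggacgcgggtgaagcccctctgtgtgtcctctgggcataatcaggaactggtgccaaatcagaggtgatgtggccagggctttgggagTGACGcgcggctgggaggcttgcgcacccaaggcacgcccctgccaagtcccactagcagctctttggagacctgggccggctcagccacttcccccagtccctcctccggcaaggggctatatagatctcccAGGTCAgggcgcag
Dio2: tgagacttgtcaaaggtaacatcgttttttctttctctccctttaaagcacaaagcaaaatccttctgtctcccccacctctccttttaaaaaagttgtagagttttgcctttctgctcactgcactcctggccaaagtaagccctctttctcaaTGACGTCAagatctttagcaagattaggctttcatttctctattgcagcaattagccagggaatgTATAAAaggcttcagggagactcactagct
Ppargc1a: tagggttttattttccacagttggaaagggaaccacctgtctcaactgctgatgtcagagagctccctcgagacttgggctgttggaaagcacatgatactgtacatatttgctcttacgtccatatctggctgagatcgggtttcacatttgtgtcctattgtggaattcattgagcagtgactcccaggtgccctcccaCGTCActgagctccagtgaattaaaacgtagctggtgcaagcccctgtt
The half-site TGACG started at base -147 of Ucp1 and, on the minus strand, at base -49 of Ppargc1a, counted from the start site. Dio2 held it on both strands as the overlapping palindrome TGACGTCA, at bases -95 and -92. Fabp3 held it at base -149 and Prdm16 held none of the 4 motifs, so 4 of the 5 promoters had the half-site, against 20.8% of 32817 RefSeq mouse promoter windows of 250 bases before to 50 bases after the start. AGGTCA was found in Ucp1 at base -14 (16.3% of windows), TATAAA in Dio2 at base -30 (13.6%), and TCAAGGTCA in none of the 5 (0.424%). These are matches of letters, not tests of binding. Cpt1b had the same order in EC KO 1, 2 and 3, at 92.0, 97.7 and 125 TPM, but no promoter was found for it. Adrb3 had the reverse order, at 51.5, 20.3 and 19.3 TPM. A link between the motifs and the order of the libraries was not tested.

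**Figure D2:**
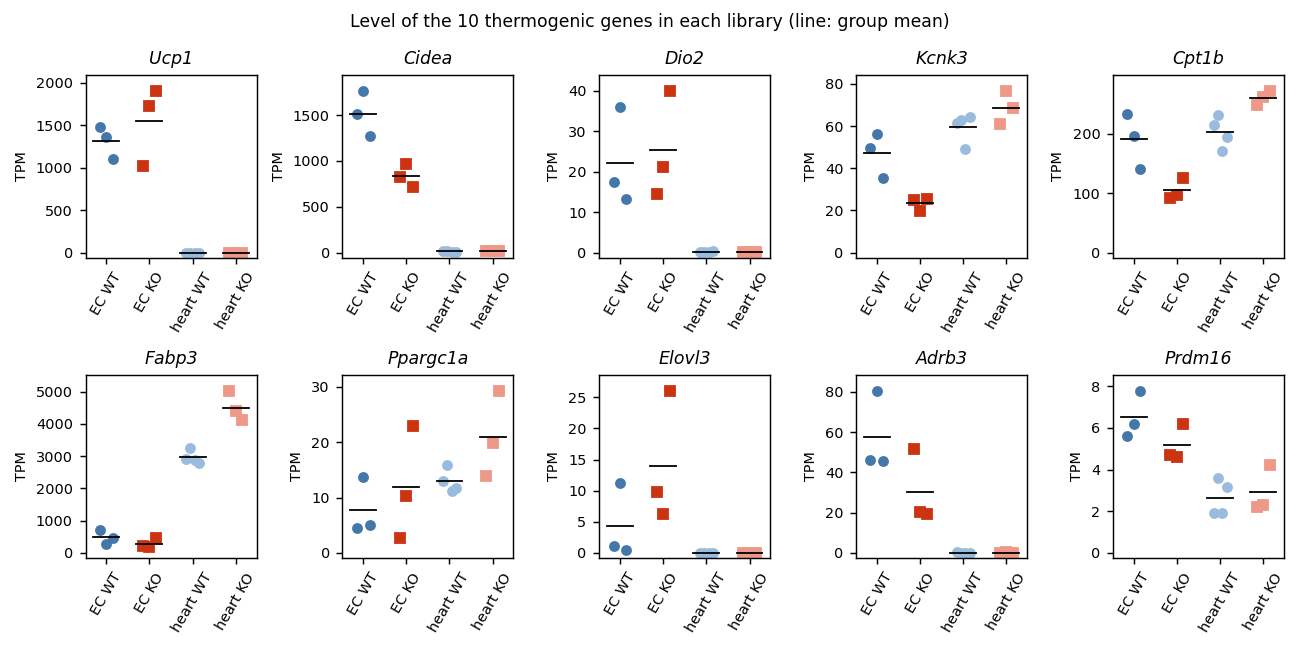
TPM of each of the 10 thermogenic genes (one panel per gene, linear axis from 0) in the EC WT, EC KO, heart WT and heart KO libraries. Each point is 1 library and each line a group mean. Ucp1 lay between 1022 and 1909 TPM in the 6 EC libraries and at or below 0.0853 TPM in hearts, whereas Fabp3 was highest in heart KO.

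Adrb3, the beta3-adrenergic receptor through which norepinephrine reaches mouse adipocytes, was at 46.4, 80.5 and 45.8 TPM in EC WT 1, 2 and 3 and at 51.5, 20.3 and 19.3 TPM in EC KO 1, 2 and 3. EC KO 1 lay within the EC WT range, while EC KO 2 and EC KO 3, the libraries with the highest Ucp1, had the lowest Adrb3. The difference between genotypes was -0.74 (SE 0.397, edgeR adjusted p = 0.223). It reached -1.29 (edgeR adjusted p = 0.0446) without EC KO 1 and was -0.020 without EC KO 2 and EC KO 3 together. In hearts Adrb3 was at or below 0.305 TPM and was not tested.

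Dio2, the deiodinase that turns thyroxine into active thyroid hormone inside the brown adipocyte, was at 17.4, 35.9 and 13.2 TPM in EC WT 1, 2 and 3 and at 14.6, 21.2 and 39.99 TPM in EC KO 1, 2 and 3. The highest values of both genotypes were similar and the groups overlapped (log2 difference 0.21, SE 0.443, edgeR adjusted p = 0.763). Its sign depended on single libraries, with -0.0961 without EC WT 3 and -0.20 without EC KO 3. The whole hearts held 0.122, 0.163, 0.203 and 0.303 TPM in heart WT and 0.151, 0.0720 and 0.129 TPM in heart KO.

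Ppargc1a encodes PGC-1alpha, the coactivator that drives mitochondrial genes and Ucp1 after cold or adrenergic stimulation. It was at 4.45, 13.8 and 5.06 TPM in EC WT 1, 2 and 3 and at 2.62, 10.3 and 23.0 TPM in EC KO 1, 2 and 3. The EC KO libraries spanned the whole EC WT range, and the difference of 0.63 (SE 0.547, edgeR adjusted p = 0.441) was not called. Without EC KO 2 and EC KO 3 it was -1.01. Prdm16, a zinc finger protein that sets brown adipocyte identity, was at 5.62, 6.16 and 7.76 TPM in EC WT 1, 2 and 3 and at 4.71, 4.59 and 6.18 TPM in EC KO 1, 2 and 3. Its normalized counts were nearly the same in both genotypes, 37.7 ± 1.62 CPM (counts scaled by library size) in EC WT and 37.7 ± 2.40 in EC KO (SD, n = 3 each, edgeR adjusted p = 0.998).

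Cidea, a lipid droplet protein abundant in brown fat, was at 1506, 1765 and 1266.5 TPM in EC WT 1, 2 and 3 and at 824, 965 and 718 TPM in EC KO 1, 2 and 3. Every EC KO library was below every EC WT library. The log2 difference of -0.84 (SE 0.26) did not pass the threshold (edgeR adjusted p = 0.0627). It passed without EC WT 3 (log2 difference -1.01, edgeR adjusted p = 0.0287), a fit that called 1721 of all genes where the main fit called 1420. With any 1 library left out, the log2 difference ranged from -1.05 to -0.69 and the edgeR adjusted p from 0.0287 to 0.205. Hearts had 11.8 to 14.2 TPM in heart WT and 18.4 to 19.6 in heart KO, far below ECs of either genotype.

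Kcnk3, the potassium channel TASK-1, found in brown adipocytes and also in heart muscle, was at 49.7, 56.3 and 35.4 TPM in EC WT 1, 2 and 3 and at 25.1, 19.8 and 25.4 TPM in EC KO 1, 2 and 3. The EC KO libraries were close to each other and all below EC WT. In normalized counts Kcnk3 fell from 158 ± 46.5 CPM in EC WT to 78.4 ± 2.98 CPM in EC KO (SD, n = 3 each, log2 difference -1.01, SE 0.216, edgeR adjusted p = 0.0217), and it was the one called gene of the set in ECs. The call stood at the edge of the fold threshold and on the whole set of libraries. Leaving out EC WT 1, EC WT 2, EC KO 1, EC KO 2 or EC KO 3 raised the adjusted p to 0.0569, 0.0544, 0.0601, 0.0725 and 0.0805, while without EC WT 3 it was 0.00498. The log2 difference stayed between -1.23 and -0.81 with any 1 library left out. Without EC KO 2 and EC KO 3 together the difference was of the same size, at -0.999.

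Cpt1b, the carnitine palmitoyltransferase that admits fatty acids to muscle and brown fat mitochondria, was at 233, 197 and 141 TPM in EC WT 1, 2 and 3 and at 92.0, 97.7 and 125 TPM in EC KO 1, 2 and 3. Again every EC KO library was below every EC WT library, and the difference of -0.89 (SE 0.29, edgeR adjusted p = 0.0714) did not pass. Without EC WT 3 it passed (log2 difference -1.13, edgeR adjusted p = 0.0189). With any 1 library left out, the log2 difference ranged from -1.13 to -0.54 and the edgeR adjusted p from 0.0189 to 0.176. Of the 31-base words of its transcripts, 76.1% also occur in the overlapping gene Gm44502, which was itself at 1.21 TPM or below, so the assignment of reads between the 2 genes is uncertain. Summed with it, Cpt1b differed by -0.89 (edgeR adjusted p = 0.0710).

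Fabp3, a fatty acid binding protein of heart, muscle and brown fat, was at 723, 285 and 475 TPM in EC WT 1, 2 and 3 and at 203, 175 and 449 TPM in EC KO 1, 2 and 3. EC WT 2 was below EC KO 3, so the genotypes overlapped (log2 difference -0.92, SE 0.479, edgeR adjusted p = 0.209). It shares 50.1% of its 31-base words with the pseudogene Fabp3-ps1, which was at 9.02 TPM or below in every library. Fabp3, Cpt1b and Kcnk3 are also heart genes, and the cardiomyocyte markers were higher in EC WT. Those markers summed to 0.317, 1.91 and 0.712% of their heart WT mean in EC WT 1, 2 and 3, and to at most 0.0261% in EC KO. Heart RNA at these shares would carry 9.41, 56.6 and 21.1 TPM of Fabp3 in EC WT 1, 2 and 3, which is 1.30, 19.9 and 4.45% of the level measured. For Kcnk3 and Cpt1b it would carry at most 2.01 and 1.96% of the level measured in any EC library. These shares take muscle RNA in ECs to have the make-up of heart WT. Myl7, a cardiomyocyte marker, was at 12.7 to 34.97 TPM in EC WT and 1.003 to 3.53 in heart WT. Each other cardiomyocyte marker was lower in EC WT than in heart WT. Skeletal muscle markers summed to 22.1 to 94.2 TPM in EC WT and 3.04 to 3.99 in heart WT. The part of muscle RNA of another make-up in Fabp3, Kcnk3 and Cpt1b was not tested.

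Elovl3, a fatty acid elongase that is induced in brown fat in the cold, was at 1.18, 11.3 and 0.513 TPM in EC WT 1, 2 and 3 and at 9.80, 6.22 and 26.0 TPM in EC KO 1, 2 and 3. EC WT 1 and EC WT 3 were below all EC KO libraries, but EC WT 2 lay within them. The difference of 1.75 had an SE of 0.989 and did not pass (edgeR adjusted p = 0.243). EC WT 2 decided that, since without it the difference was 3.85 (edgeR adjusted p = 0.0276). With any 1 library left out, the difference ranged from 0.98 to 3.85 and the edgeR adjusted p from 0.0276 to 0.588. Of its 2 annotated transcripts, the transcript that starts further downstream gave 60.4 to 100% of the Elovl3 TPM in each EC library, and 19.4% of the 31-base words of Elovl3 occur in Pitx3, a gene on the opposite strand that overlaps its end.

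Over the whole set, the comparison of ECs between genotypes called 0 of 10 genes higher and 1 of 10 lower, where 9.28% of the 15301 genes tested were called, 5.39% higher and 3.89% lower. The groups did not overlap for 3 of the 10 (Cidea, Kcnk3 and Cpt1b), against 40.7% of all genes tested. The median log2 difference of the 10 was -0.37, beside -0.0173 over all genes. A single call among 10 genes lies near the background of 9.28%, and the share without overlap lies below its background. On adjusted p alone the count was again 1 of 10, where 18.1% of genes passed and 8.06% passed lower. With EC KO 2 and EC KO 3 left out, 1 library remains in the EC KO group, and 0 of the 10 and 49 genes of the whole table were called, so the loss of calls says nothing about these genes.

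**Figure D3:**
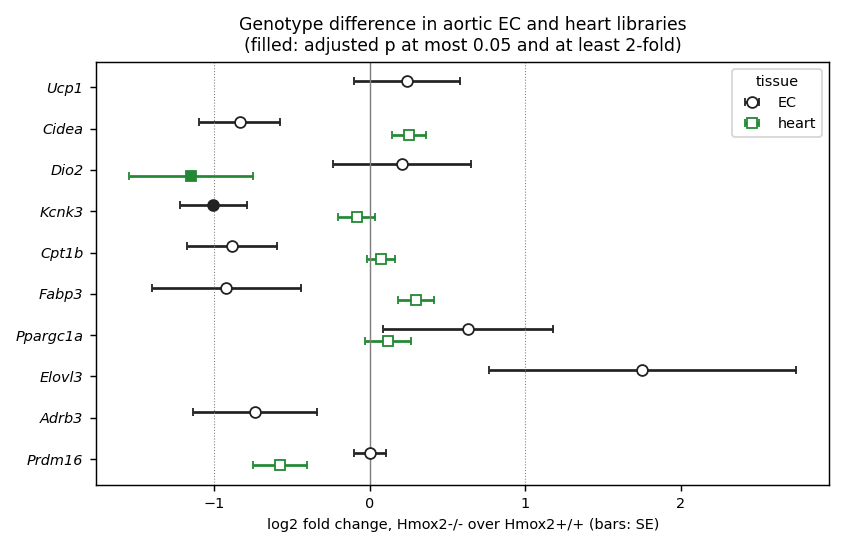
Log2 fold change of Hmox2-/- over Hmox2+/+ libraries for each thermogenic gene, with bars for the SE, in ECs (circles) and hearts (squares). Filled symbols passed both criteria and dotted lines mark the 2-fold limits. Kcnk3 in ECs (-1.01) and Dio2 in hearts (-1.15) are filled, and Ucp1, Elovl3 and Adrb3 have no heart value because they were not tested there.

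In hearts, 7 of the 10 passed the filter on low counts, and Ucp1, Elovl3 and Adrb3 did not. Dio2 was called lower, 0 genes were called higher, and 6 were not called, where 6.71% of 13816 genes were called 4.05% lower and 2.66% higher. Dio2 fell from 1.24 ± 0.541 CPM (n = 4) to 0.585 ± 0.215 CPM (n = 3; log2 difference -1.15, SE 0.397, edgeR adjusted p = 0.0442), at a level near the limit of detection and with overlapping libraries. The adjusted p was 0.0902, 0.151, 0.158 and 0.0749 without heart WT 3, heart WT 4, heart KO 2 and heart KO 3. The groups did not overlap for 0 of the 7 in normalized counts, against 40.4% of all genes.

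Prdm16 passed on adjusted p alone in hearts (33.4% of genes did, 16.2% lower and 17.2% higher), from 16.8 ± 2.13 to 11.4 ± 2.999 CPM (log2 difference -0.58, SE 0.171, edgeR adjusted p = 0.0237), short of the 2-fold limit. Fabp3, the most abundant of the set in heart, was at 2924, 3263, 2888 and 2788 TPM in heart WT 1 to 4 and at 5018, 4395 and 4107 TPM in heart KO 1 to 3. All heart KO libraries were above all heart WT libraries in TPM, but in counts normalized across genes the groups overlapped and the difference was 0.30 (SE 0.116, edgeR adjusted p = 0.0699). Mitochondrially encoded transcripts took 57.6 to 65.6% of TPM in heart WT and 34.5 to 43.4% in heart KO, which raises the TPM of every nuclear gene in heart KO. An offset for transcript length and GC content turned the Fabp3 difference to -0.31 (edgeR adjusted p = 0.0173), that of Cidea from 0.25 to -0.22, that of Cpt1b from 0.07 to -0.06 and that of Kcnk3 from -0.08 to 0.03. Their direction in heart therefore depends on the normalization. Ppargc1a differed by 0.12 (SE 0.147, edgeR adjusted p = 0.562), with heart KO 3 the highest of the hearts at 29.2 TPM.

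The tissue by genotype interaction compared the genotype difference in heart with that in ECs, over all 13 libraries and for all 10 genes. Cidea was called (heart minus EC 1.12, SE 0.264, edgeR adjusted p = 0.00694), where 15.4% of 15938 genes were called, 8.08% higher and 7.33% lower. It was lower in EC KO than in EC WT by 0.84, while its heart difference was 0.25. Kcnk3 (0.96, SE 0.253, edgeR adjusted p = 0.0124) and Cpt1b (1.00, SE 0.301, edgeR adjusted p = 0.0240) passed on adjusted p alone, as did 28.8% of genes, 16.2% higher and 12.7% lower. The offset for length and GC content left Cidea at 0.48 (edgeR adjusted p = 0.190), Kcnk3 at 0.98 (edgeR adjusted p = 0.0137) and Cpt1b at 0.82 (edgeR adjusted p = 0.0672). Without EC WT 1 or EC KO 3, Cidea fell short of the 2-fold limit, at 0.99 and 0.98. For Ucp1, Elovl3, Adrb3 and Dio2 the heart term rested on very few counts and is not interpreted.

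Across the 4 groups, Ucp1, Dio2, Elovl3, Adrb3 and Prdm16 had the same order of tissues, with all EC libraries above all hearts and no order between genotypes, since neighbouring groups of one tissue overlapped. Cidea descended from EC WT through EC KO and heart KO to heart WT without overlap in TPM. Fabp3 descended in TPM from heart KO through heart WT to ECs, and EC WT and EC KO overlapped. Kcnk3 and Cpt1b were at like levels in EC WT and heart WT, which overlapped, with EC KO below both. In TPM, heart KO was above heart WT without overlap for Cpt1b and overlapped with it for Kcnk3. The lower mitochondrial share raises the TPM of nuclear genes in heart KO. In normalized counts the heart genotypes were without overlap for 0 of the 7 genes tested. Ppargc1a overlapped between all neighbours in the order heart KO, heart WT, EC KO and EC WT.

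To set the thermogenic genes beside the amount of adipocyte RNA, each gene's TPM was divided by the summed TPM of the 14 adipocyte markers in the same library. Ucp1 was 16.1, 9.76 and 12.04% of that sum in EC WT 1, 2 and 3 and 9.97, 23.0 and 18.9% in EC KO 1, 2 and 3. The genotypes overlapped, and the mean log2 ratio was -3.02 ± 0.362 in EC WT and -2.62 ± 0.63 in EC KO (SD, n = 3 each). The difference of 0.40 was within the spread of libraries (two-sided exact permutation test, p = 0.4, where 0.1 is the smallest p that 3 against 3 allows). Set against Adipoq alone it was 0.48 (exact permutation p = 0.4) and against Plin1 alone 1.16 (exact permutation p = 0.3), so that EC KO was higher on average by all 3 measures and overlapped with EC WT by all 3. The sum is not a steady measure of adipocyte RNA, since Cfd alone made up 22.9 to 28.7% of it in EC WT and 43.8 to 46.7% in EC KO. The other 13 markers summed to 6556 to 10814.5 TPM in EC WT and 4120 to 5675 TPM in EC KO, without overlap. Against these 13, a denominator added after seeing the data, the Ucp1 difference was 0.82 with overlap (exact permutation p = 0.2).

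The same scaling placed the other genes on different sides. Kcnk3 per 14 markers was 0.541, 0.402 and 0.385% in EC WT 1, 2 and 3 and 0.245, 0.264 and 0.251% in EC KO 1, 2 and 3, with no overlap (log2 difference -0.79). The groups did not overlap per Adipoq (-0.71) or per 13 markers without Cfd (-0.37) either, but per Plin1 the difference was -0.03 and the groups overlapped. Cpt1b gave -0.64 per 14 markers and -0.56 per Adipoq with no overlap, and -0.22 without Cfd and 0.12 per Plin1 with overlap. Cidea gave -0.65 per 14 markers, -0.57 per Adipoq, -0.23 without Cfd and 0.11 per Plin1, overlapping each time. Elovl3 did not overlap per 14 markers, per Adipoq or per Plin1, with EC KO higher by 2.81, 2.89 and 3.57 on the log2 scale (exact permutation p = 0.1 each, the smallest possible). Per 14 markers and per Adipoq this was close to a tie, with log2 ratios of -10.28 and -6.53 in EC WT 2 and of -10.23 and -6.50 in EC KO 2, and the size of the difference came from EC WT 1 and EC WT 3, at 1.18 and 0.513 TPM. Leptin (Lep), a hormone of white fat, gave -3.62, -3.54 and -2.86 with no overlap. Pecam1, the endothelial gene, did not overlap by these 3 measures either, with EC KO higher by 1.06, 1.14 and 1.81 (exact permutation p = 0.1 each). Per 13 markers without Cfd, Pecam1 was higher by 1.48, again with no overlap. Separation after this scaling was thus not particular to thermogenic genes. Its share over all genes was not computed. Without scaling, 40.7% of all genes tested in ECs did not overlap. Plin1, which coats lipid droplets, was itself 379.5, 675 and 311 TPM in EC WT and 292, 170 and 217 TPM in EC KO, so a ratio to it carries that difference.

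**Figure D4:**
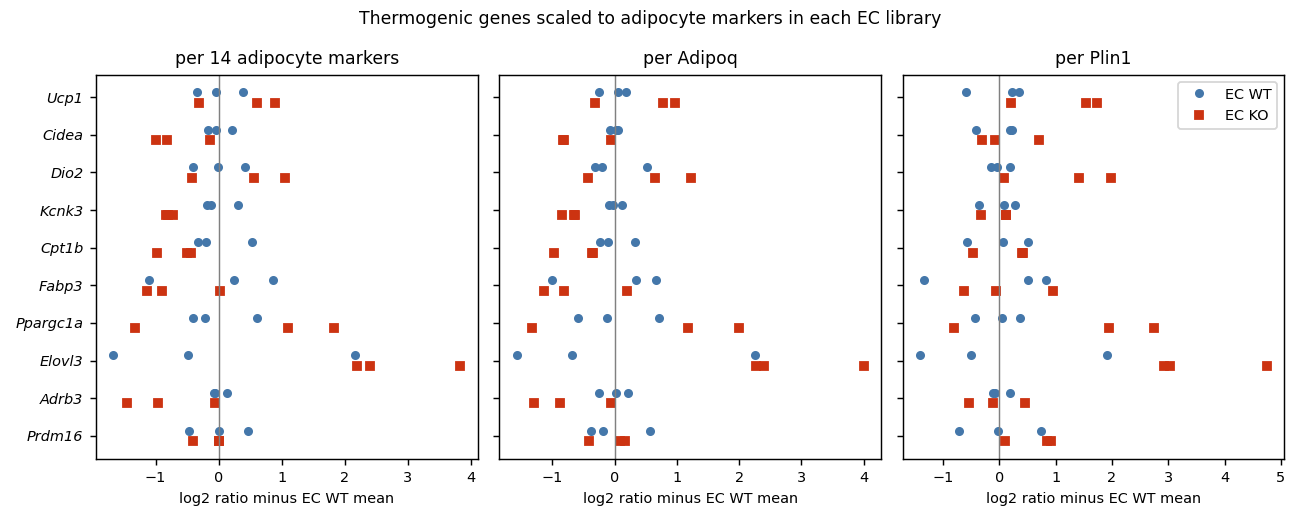
Log2 ratio of each thermogenic gene to 3 measures of adipocyte RNA (the sum of 14 adipocyte markers, Adipoq, Plin1) in each EC library, drawn relative to the EC WT mean. Circles are EC WT and squares EC KO libraries. Elovl3 is separated in all 3 panels, Kcnk3 and Cpt1b in the first and second, and the other genes, Ucp1 among them, in none. The endothelial gene Pecam1, which is not drawn, was also separated by all 3 measures.

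Other genes known from brown fat were described from a list of 20, of which 18 were tested in ECs. There 2 were called lower (Ppara and Pank1) and 0 higher, against 3.89% and 5.39% of all genes. The median log2 difference was -0.61, beside -0.0173 over all genes. With DESeq2, upper-quartile scaling, no filter or a single fit of all libraries, 1 was called higher. The same held without EC WT 3 or without EC KO 1. Cox8b, a subunit of cytochrome c oxidase, was at 3586, 3718 and 2839 TPM in EC WT and 2065, 1897 and 2012 TPM in EC KO, and passed on adjusted p alone (log2 difference -0.77, edgeR adjusted p = 0.0424), as did the lipid droplet protein Plin5 (-0.71, edgeR adjusted p = 0.0435). Ppara, the nuclear receptor for fatty acids, fell by 1.88 on the log2 scale (edgeR adjusted p = 0.00737) and Pank1, a kinase of coenzyme A synthesis, by 1.22 (edgeR adjusted p = 0.0381). Cox7a1 (-0.55), Letmd1 (-0.61) and Clstn3 (-0.09) did not pass. Zic1, a factor of classical interscapular brown fat singled out after its values were seen, was at or below 0.0687 TPM in every library, while Ebf2, which marks brown fat more widely, was at 7.18 to 10.4 TPM in ECs. In hearts 14 of the 20 were tested, Cox7a1 (1.26) and Cox8b (1.24) were called higher and Ucp3, an uncoupling protein of muscle, was called lower (-1.20), beside 2.66% of all genes called higher and 4.05% lower. Both higher calls were lost without heart KO 1 and with the offset for length and GC content, and the Ucp3 call was lost without heart WT 1, heart WT 3 or heart KO 3.

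On the list of the adrenergic and lipolysis pathway, all 16 genes were tested in ECs, with 4 called lower and 0 higher, where 3.89% of all genes were called lower and 5.39% higher. These were G0s2, an inhibitor of triglyceride lipase (515 to 665 TPM in EC WT, 182 to 231 in EC KO; log2 difference -1.42, edgeR adjusted p = 0.00637), Pnpla2, that triglyceride lipase itself (-1.05, edgeR adjusted p = 0.0341), Lipe, the hormone-sensitive lipase (-1.13, edgeR adjusted p = 0.0267), and Adrb1, the beta1 receptor (-1.82, edgeR adjusted p = 0.0412). An inhibitor and the enzyme that it inhibits were thus both lower. Gnas, the G protein that couples the receptors, was at 1064 to 1309 TPM in EC WT and 775 to 836 in EC KO and did not pass (-0.60, edgeR adjusted p = 0.102), nor did Prkar2b (-0.38). The median of the list was -0.49. In hearts 0 of 16 were called, against 6.71% of all genes. On adjusted p alone 3 were lower and 1 higher there, against 16.2% and 17.2% of all genes.

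Genes of thyroid hormone handling were 6 tested of 8 in ECs, with 1 called lower and 0 higher, against 3.89% and 5.39% of all genes. Thrb, the thyroid receptor beta, was called lower (13.3, 8.19 and 10.7 TPM in EC WT, 4.79, 4.37 and 3.54 in EC KO; log2 difference -1.16, edgeR adjusted p = 0.0101). The cofactors Ncor1 (-0.44) and Med1 (-0.56) passed on adjusted p alone, and Thra did not (-0.55). On adjusted p alone 4 of the 6 were lower and 0 higher, against 8.06% and 10% of all genes in ECs. In hearts 0 of 6 were called, against 6.71% of all genes. Thrb (-0.76), Med1 (-0.59) and Ncor1 (-0.52) passed there on adjusted p alone, as did 33.4% of all genes in hearts, 16.2% lower and 17.2% higher.

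Of 19 transcription factors and cofactors of thermogenic genes, all tested in ECs, 4 were called lower and 0 higher, against 3.89% lower and 5.39% higher over all genes. Besides Ppara these were Cebpa (-1.08) and Cebpb (-1.33), which drive adipocyte differentiation, and Ppargc1b (-1.54), the paralog of Ppargc1a. Pparg, the master regulator of adipocytes, was at 115, 128 and 82.5 TPM in EC WT and 83.4, 75.8 and 70.1 in EC KO and did not pass (-0.52, edgeR adjusted p = 0.161). Esrra passed on adjusted p alone (-0.63), Tfam did not (-0.11), and the list's median was -0.14. In hearts 0 of 19 were called, against 6.71% of all genes. On adjusted p alone 7 were lower and 2 higher there, against 16.2% and 17.2% of all genes.

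Among 7 relatives of Ucp1, 0 were called in ECs, against 9.28% of all genes. Ucp2 was at 34.8 to 58.0 TPM in EC WT and 41.6 to 64.4 in EC KO (-0.02), and Ucp3 at 16.0 to 44.5 and 12.4 to 25.5 TPM (-0.48), so Ucp1 exceeded both in every EC library. The ATP/ADP carrier Slc25a4 passed on adjusted p alone (-0.53) and its relative Slc25a5 did not (-0.06). In hearts Slc25a5 was called higher (1.14), Ucp3 and Slc25a27 were called lower (-1.20 and -1.15), and Ucp2 was higher on adjusted p alone (0.96, edgeR adjusted p = 0.000574). Over all genes in hearts, 2.66% were called higher and 4.05% lower. With the offset for length and GC content 0 of the 7 were called higher. Of 13 tested paralogs of the other genes, Adrb1 and Ppargc1b, both already named above, were called lower in ECs and 0 higher. Over all genes there, 3.89% were called lower and 5.39% higher. Fabp4, the fatty acid binding protein of adipocytes and capillaries, was the most abundant of them at 6134 to 9653 TPM in EC WT and 3802 to 5479 in EC KO (-0.66, edgeR adjusted p = 0.127).

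The 14 adipocyte markers had 4 called lower in ECs and 0 higher (3.89% and 5.39% of all genes), namely Lep (-3.77), Trarg1 (-1.49), Plin4 (-1.31) and Lipe. Adipoq (-0.30), Cfd (0.58), Car3 (-0.62), Cidec (-0.10) and Thrsp (-1.22) did not pass, and the median was -0.57. Lep fell from 12.7, 15.01 and 8.57 TPM in EC WT to 0.971, 1.05 and 0.550 TPM in EC KO (edgeR adjusted p = 0.00192), libraries that were far apart. On a list of 10 white adipocyte genes, which also holds Lep, 9 were tested. Slc7a10, an amino acid transporter of white adipocytes, was called higher (1.48), and Npr3 (-1.53) and Tcf21 (-2.51) were called lower with Lep, while Retn (0.51) and Nnat (0.24) did not pass. The higher call of Slc7a10 was lost when any 1 EC library other than EC KO 2 was left out, and 1 or 2 genes of the list were then called lower. Of 11 adipocyte markers tested in hearts, Cfd (1.79) and Adig (2.67) were called higher, at levels of at most 6.67 TPM, and of 4 white adipocyte genes Nnat was called lower (-2.03). Over all genes in hearts, 2.66% were called higher and 4.05% lower. The lists share some genes, such as Lipe, Lep and Ppara. With any 1 library left out, between 1 and 5 of the adipocyte markers, 1 and 3 of the other brown adipocyte genes, 1 and 6 of the adrenergic and lipolysis genes, 0 and 1 of the thyroid genes and 1 and 4 of the transcription genes were called lower in ECs. In the same fits 0 or 1 of the other brown adipocyte genes and 0 or 1 of the adrenergic and lipolysis genes were called higher. Of the adipocyte markers, thyroid genes and transcription genes 0 were called higher. Without EC KO 2 and EC KO 3 together, 0 were called in each list, cardiomyocyte markers included, as the EC KO group is then 1 library.

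**Figure D5:**
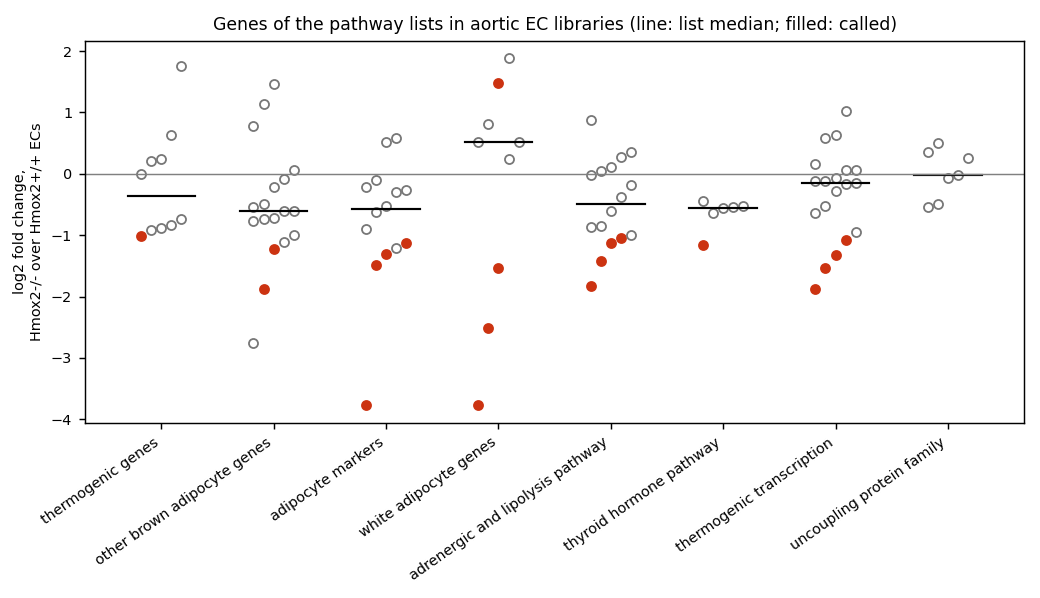
Log2 fold change of Hmox2-/- over Hmox2+/+ ECs for the tested genes of the thermogenic set and of 7 lists. Each circle is 1 gene, filled where it was called, and each line is the list median. The thermogenic genes themselves are the first column. Medians lie below 0 in each column except the white adipocyte genes (0.51), and Lep (-3.77) is the lowest point.

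The genes whose pattern was most like that of Ucp1 were sought by the root mean square (RMS) difference of centred log2 CPM. Over the 13 libraries, among 15937 genes, these were Tmem45b, Pck1, Adipoq, Cidec, Car3, Acsm3, Plin1 and Cfd, with RMS differences of 1.82 to 2.45, beside a median of 6.96 over all genes. Adipoq, Cidec, Car3, Plin1 and Cfd are on the adipocyte marker list, and Pck1 makes glycerol for triglyceride in fat. Over the 6 EC libraries alone, among 15300 genes, they were Slfn3, mt-Nd5, A830018L16Rik, Brwd3, Pcdhb19, Entpd7, Ankrd9 and Met, with RMS differences of 0.127 to 0.212, beside a median of 0.517. Neither list shares a gene with the other, and the EC list holds none of the 10 thermogenic genes. Both rest on few libraries, and those of one tissue share their preparation. Over the 13 libraries the measure mostly follows the gap between ECs and hearts, since Ucp1 was at or near 0 in hearts. Genes high in ECs and near 0 in hearts are nearest by it, so the adipocyte markers there are no separate result. Of the EC list, Pcdhb19 was at 0.208 to 0.360 TPM and Brwd3 at 0.471 to 1.06 TPM in ECs, while mt-Nd5 was at 3764 to 6701 TPM.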

How the data were processed

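The 13 mouse libraries were prepared from poly(A) RNA with a strand-specific protocol and sequenced as paired ends. The authors pseudoaligned the reads with kallisto 0.44.0 and deposited, per transcript, estimated counts and TPM values. The study's methods name a GENCODE mouse annotation on GRCm39, whereas the submitters' processing notes list the builds mm10 and GRCh38.p13. Transcript identifiers without version were matched to GENCODE mouse M39 (115140 of 118489, 97.17%), which left 0.755 to 1.01% of counts unassigned, and values were summed per gene. Each library is named by its group and the replicate number of its title. Depth was 26067147 to 31619776 estimated counts in 12 libraries and 7268626 in heart WT 1, where low genes are least precise.

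Summed estimated counts were rounded, filtered with filterByExpr (minimum count 10), scaled by TMM and tested with the edgeR 4.0.16 quasi-likelihood test in R 4.3.3, within each tissue and for the tissue by genotype interaction, with Benjamini-Hochberg adjustment over all genes. Fold changes and CPM come from this scaling. Ratios to adipocyte markers used TPM with 0.01 added to both terms and an exact permutation test. The heart ratio of Ucp1 was not computed, because Ucp1 was at or near 0 counts there. The edgeR test was tested on simulated counts. Alternatives were DESeq2 1.42.0 as the test, its size factors in edgeR, upper-quartile scaling, no filter, length-scaled TPM, a replicate block, a single fit of all libraries, adjusted p alone, and each library left out. Added after seeing the data were the removal of EC KO 2 and EC KO 3 together, the sum of near-identical genes, ratios without Cfd, and a correction of counts by transcript length and GC content. The 10 genes and all lists were chosen with earlier results of these data known. Genes named besides the 10 are up to 5 of each list with the highest mean TPM in the tissue, those called up to 4 per list, and the 8 nearest to Ucp1. Zic1, Lhx8 and Ebf2 are among those named outside this rule. A result that this rule would name is not reported here. Libraries were not treated as paired by replicate number, since not every correlation of same-numbered deviations between genotypes was above 0.1. With so few libraries this cannot show that they were unpaired. Whether EC and heart libraries share mice is not given and was not tested, and the interaction test took them as independent.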

Additional observations from a re-analysis of the deposited data

Results flagged for a closer look

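The genotype difference of 3 thermogenic genes differed between tissues on adjusted p alone in a test of the difference itself, beside 28.8% of all 15938 genes, so this number is near the background. Cidea was the 1 gene that also passed the 2-fold limit. For Cidea the heart difference exceeded the EC difference by 1.12 on the log2 scale (edgeR adjusted p = 0.00694), for Kcnk3 by 0.963 (edgeR adjusted p = 0.0124) and for Cpt1b by 0.999 (edgeR adjusted p = 0.0240). In ECs every EC KO library was below every EC WT library for each of the 3 genes, where the genotypes did not overlap, in either direction, for 40.7% of all genes tested, and in hearts the libraries of both genotypes overlapped in normalized counts. The adipocyte marker sum was 7503 to 14026 TPM in ECs and 43.3 to 73.6 TPM in hearts, so the levels compared come from different mixtures of cells, and the part of this in the differences was not tested. With the offset for length and GC content Cidea was at 0.48 (edgeR adjusted p = 0.190) and Cpt1b at 0.82 (edgeR adjusted p = 0.0672), and 0 of the 10 genes were called.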

How the results depend on the processing

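For the 27 log2 differences of single genes, 434 of 509 alternative values kept direction and side of the thresholds, 22 lost a call, 29 gained one and 24 changed sign. In ECs, 1 gene was called, and 0 were with upper-quartile scaling, no filter, length-scaled TPM or the offset for length and GC content, where Kcnk3 kept an adjusted p of 0.0107 to 0.0352 and fell just short of 2-fold. Without EC KO 2 and EC KO 3 together, which leaves 1 EC KO library, 0 were called, and 0 to 3 were with any 1 library left out. In hearts, 1 was called, 2 by adjusted p alone, 0 with length-scaled TPM, a single fit of all libraries or the offset, and 0 to 1 with 1 library left out. The interaction called 1, 3 by adjusted p alone, DESeq2 (Ucp1 among them, at -3.52) or no filter, 2 with DESeq2 size factors or near-identical genes summed, 0 with the offset, and 0 to 3 with 1 library left out. Ucp1 per adipocyte marker kept its sign, at 0.15 to 0.753 with 1 library left out.

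Correlations of same-numbered libraries between genotypes were 0.181, 0.04002 and 0.0872 in ECs and -0.0335, 0.0772 and 0.0370 in hearts. They rest on too few libraries to show or exclude pairing. With the replicate block, 0 genes were called in ECs, 0 in hearts and 2 in the interaction, and EC Prdm16 was at -0.000546.

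Values that changed sign were, in ECs, Ucp1 -0.47, Dio2 -0.67, Ppargc1a -1.01 and Prdm16 -0.0847 without EC KO 2 and EC KO 3, and Prdm16 -0.00309 with DESeq2, -0.00316 with its size factors, -0.27 with length-scaled TPM and -0.0379 in a single fit. With 1 library left out, EC Dio2 ranged from -0.20 to 0.63, EC Prdm16 from -0.0366 to 0.0452, heart Ppargc1a from -0.0941 to 0.28, and in the interaction Ppargc1a from -0.89 to 0.0968 and Elovl3 from -2.76 to 2.26. With the offset, hearts gave Cidea -0.22, Kcnk3 0.032, Cpt1b -0.0644 and Fabp3 -0.31, and the interaction Ppargc1a 0.30. Length-scaled TPM gave Prdm16 0.0702 in the interaction. Other than through fewer libraries, the cause was not tested.

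Over all genes, 1420 were called in ECs and 532 without EC KO 3, 864 without EC KO 2, or 2766 by adjusted p alone. Hearts gave 927 and 4618 by adjusted p alone, and the interaction 2456 and 4596. Upper-quartile scaling moved the share of interaction calls that were higher from 52.4 to 42.7% and the median log2 difference over all genes from 0.0264 to -0.0741. The heart values of Ucp1, Elovl3, Adrb3 and Dio2 rest on few counts. Depth was 7268626 estimated counts in heart WT 1 and 29815090 to 31619776 in the other hearts.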
